A study of Homo sapiens with 6 samples.

Results

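The 10 genes described here encode the core of the human small RNA pathway: the nuclear processing enzyme DROSHA and its partner DGCR8, the cytoplasmic enzyme DICER1, the Argonaute proteins AGO1 to AGO4, and the scaffold proteins TNRC6A, TNRC6B and TNRC6C. They were taken by symbol from the deposited expression table, and all 10 of 10 were found among its 57688 rows. Of the 10, 4 were higher and 2 were lower in melanoma cells given an siRNA against PPARGC1A than in cells given a control siRNA, where 25.6% of all tested genes were higher and 22.5% lower. AGO4, TNRC6A, DGCR8 and AGO2 rose, by ratios of 1.22 to 1.44 in mean level. DICER1 fell to 0.737 and TNRC6B to 0.824 of the control level.

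A microRNA (miRNA) gene is first transcribed into a long hairpin transcript, which DROSHA and DGCR8, together called the Microprocessor, cut in the nucleus. The released hairpin is exported, and DICER1 cuts it in the cytoplasm to a short duplex. One strand of that duplex is loaded into an Argonaute protein, which it guides to messenger RNAs with a matching sequence. A TNRC6 protein then binds the Argonaute and recruits the enzymes that shorten the poly(A) tail, after which the cap is removed and the message is degraded. Transfected siRNAs enter the same Argonaute proteins.

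RNA was sequenced from WM3248, an established line of cells labelled as VGP primary melanoma. The siNC group (n = 3) had received a commercial negative control siRNA and the siPGC1a group (n = 3) a single siRNA product directed at PPARGC1A, the gene for the transcriptional coactivator PGC1-alpha. With a single product, effects of losing PPARGC1A and effects of that siRNA's own sequence on other genes cannot be told apart. Both siRNAs were delivered by lipofection at 30 nM, and RNA was collected at 48 h, so every library comes from cells carrying an siRNA and untransfected cells were not analysed here. Nothing in the labels shows whether the 3 samples of a group were separate cultures, so the p-values refer only to how far these samples spread, and that spread may be technical.

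The deposited values are FPKM, reads scaled by gene length and by the size of the library, which allows levels of different genes to be compared per length. Steps in the values of short genes put each library at 25040000 to 26400000 reads. PPARGC1A, the targeted gene, stood at 0.932, 1.04 and 0.947 FPKM in the siNC libraries and at 0.400, 0.354 and 0.413 FPKM in the siPGC1a libraries. The groups did not overlap, and the mean level of PPARGC1A was 60.0% lower in siPGC1a. On the log2(FPKM + 1) scale, which understates changes at such low levels, the difference was -0.51 (SE 0.066, limma adjusted p = 0.000236). The melanocyte lineage marker SOX10 was abundant, at 246.3 ± 10.3 and 230.0 ± 11.9 FPKM (SD, n = 3), and so was DCT. Other markers of that lineage were low. In siNC the mean was 7.24 FPKM for MITF, 5.29 for PMEL, 1.86 for MLANA, 1.44 for TYR and 1.08 for TYRP1. PTPRC, an immune cell marker, was listed at 0 in all libraries, and CD14, another, stood at 0.768 to 1.29 FPKM. Of the keratinocyte markers KRT1 was listed at 0 in all libraries, and KRT10 stood at 20.6 ± 0.412 FPKM in siNC and 22.4 ± 2.66 FPKM in siPGC1a (n = 3) and did not pass. Exons of KRT10 overlap TMEM99 (11.1 FPKM) and those of PMEL overlap CDK2 (24.5 FPKM), both on the opposite strand. As the strand setting of the counting is not given, reads there may be shared. The 6 fibroblast markers summed to 16.3 to 17.3 FPKM in siNC and 10.7 to 12.2 FPKM in siPGC1a. Of them, 4 of the 4 that could be tested were lower, where 22.5% of all tested genes were lower. The part of these markers in the results below was not tested. In a bulk sample fewer cells of a type and less RNA per cell cannot be told apart.

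Of 12021 genes tested across the transcriptome with limma at an adjusted p of 0.05, 48.1% passed, 25.6% as higher and 22.5% as lower in siPGC1a. For the 10 small RNA genes the count was 6 (60.0%), with 4 higher and 2 lower. Against that background the number of called genes is not a result about these 10, and what follows describes which of them moved and which way. The 3 values of one group lay wholly apart from those of the other in 7 of the 10 genes, against 57.2% of all tested genes. The median log2 difference was 0.04 over the 10 genes and 0.01 over all tested genes. On the log2(FPKM + 1) scale the sizes ran from 0.02 to 0.40, and this scale understates the change of genes with low levels.

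**Figure D1:**
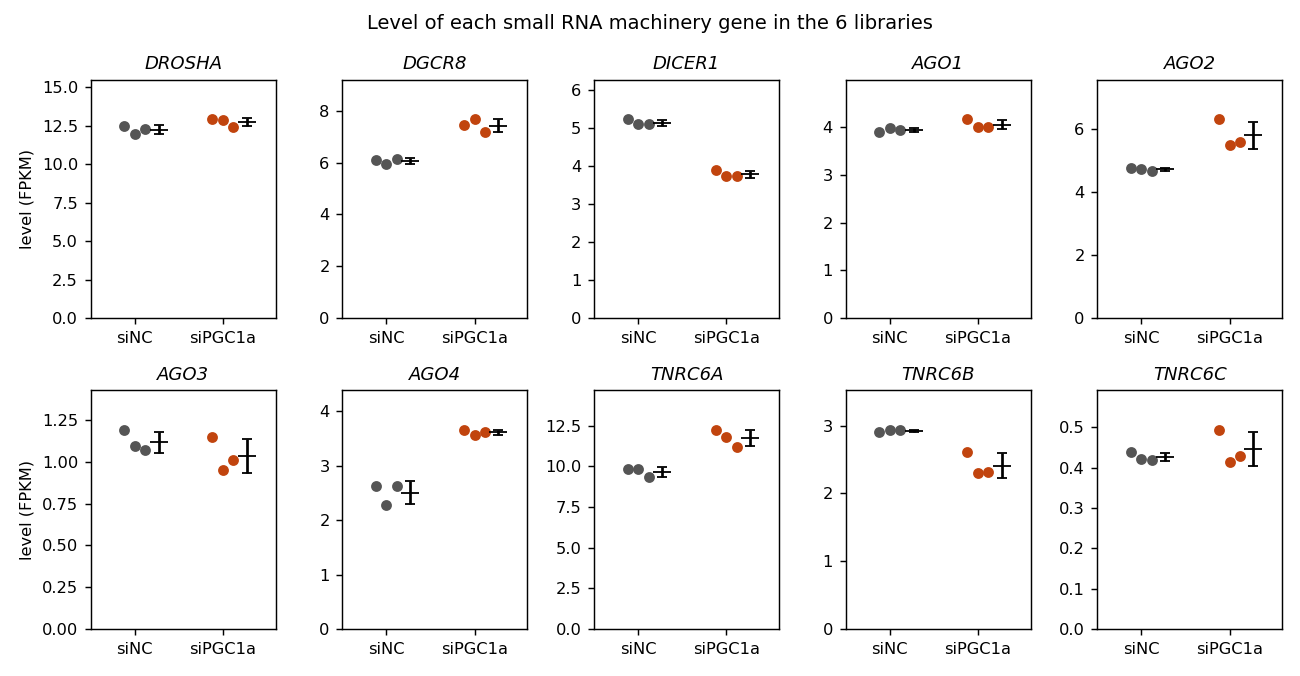
Level in FPKM (y axis, from 0, own scale per gene) of the 10 genes in the 3 siNC and 3 siPGC1a libraries. Each dot is 1 library, and the bar at the right of each group is the mean ± SD. The groups are apart for DGCR8, DICER1, AGO1, AGO2, AGO4, TNRC6A and TNRC6B, and they overlap for DROSHA, AGO3 and TNRC6C.

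Of the Microprocessor genes, DGCR8 rose and DROSHA did not pass. DROSHA, the nuclease of the complex, stood at 12.5, 11.9 and 12.3 FPKM in siNC and at 12.9, 12.9 and 12.4 FPKM in siPGC1a. The groups overlapped, since the third siPGC1a library lay below the first siNC library. The difference was 0.05 on the log2 scale (95% interval -0.04 to 0.15, limma adjusted p = 0.306), so a change of more than 0.15 in either direction lies outside the interval. DGCR8, the RNA-binding subunit that recognises the hairpin, stood at 6.09, 5.95 and 6.14 FPKM in siNC and at 7.43, 7.66 and 7.17 FPKM in siPGC1a. All siPGC1a libraries were above all siNC libraries, and DGCR8 rose 1.22-fold in mean FPKM (log2 difference 0.25, SE 0.044, limma adjusted p = 0.00126). Exons of DGCR8 overlap those of TRMT2A, a tRNA methyltransferase gene on the opposite strand. TRMT2A rose as well, from 20.3 ± 0.691 to 23.5 ± 1.40 FPKM (n = 3, limma adjusted p = 0.00811), and because the strand setting of the read counting is not given in the sources used here, reads of the 2 genes cannot be told apart where they overlap. The DGCR8 message itself carries the hairpins of MIR1306 and MIR3618, which the Microprocessor is known to cut. Both hairpin genes were listed at 0 in every library. They lie in DGCR8 exons on the same strand, and how shared reads were assigned is not given. Their values of 0 are therefore no measure of cutting.

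The balance between the 2 Microprocessor genes was compared within each library. In these terms, the DROSHA level was 2.05, 2.01 and 2.00 times the DGCR8 level in siNC and 1.74, 1.68 and 1.73 times in siPGC1a. All 3 siPGC1a ratios lay below all siNC ratios. On the log2 scale the ratio was 1.01 ± 0.020 and 0.78 ± 0.024 (SD, n = 3; exact two-sided permutation p = 0.1, the smallest that 3 against 3 can give).

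DICER1 showed the largest fall of the 10 genes. Its level was 5.22, 5.10 and 5.10 FPKM in siNC and 3.89, 3.74 and 3.73 FPKM in siPGC1a. Within each group the values lay close together, and the gap between the groups was many times their spread. The loss was 26.3% of the mean level (log2 difference -0.36, SE 0.045, limma adjusted p = 0.000186; exact permutation p = 0.1). Each DICER1 value rests on about 1151 to 1696 reads. In cells of the melanocyte lineage MITF, the lineage's master transcription factor, is known to activate DICER1. MITF was at 7.29, 7.09 and 7.34 FPKM in siNC and at 5.82, 5.35 and 5.39 FPKM in siPGC1a, a fall of 23.8% (limma adjusted p = 0.000335). Of 6 tested melanocyte lineage genes, MITF among them, 4 fell and 0 rose, where 22.5% of all tested genes were lower. The list of 7 summed to 645.3 to 667.3 FPKM in siNC and 474.8 to 514.4 FPKM in siPGC1a. Most of that sum was DCT and SOX10. DCT fell from 393.9 ± 11.2 to 253.3 ± 12.4 FPKM (n = 3), and SOX10 did not pass (limma adjusted p = 0.111). The part of these lineage genes in the DICER1 result was not tested.

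The Argonaute genes did not move together. AGO2, the member best known for cutting its target RNA, stood at 4.78, 4.72 and 4.66 FPKM in siNC and at 6.30, 5.50 and 5.59 FPKM in siPGC1a. The first siPGC1a library was the highest, and the other two were also above every siNC library. AGO2 rose 1.23-fold in mean FPKM (log2 difference 0.25, SE 0.055, limma adjusted p = 0.00468), and without that library the log2 difference was 0.19 (limma adjusted p = 0.0147). AGO4 stood at 2.63, 2.27 and 2.62 FPKM in siNC and at 3.65, 3.56 and 3.62 FPKM in siPGC1a. Its groups were well apart, with the wider spread in siNC. This was the largest rise of the 10 genes, 1.44-fold in mean FPKM (log2 difference 0.40, SE 0.057, limma adjusted p = 0.000404).

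AGO1, an Argonaute that represses its targets without an efficient cutting activity, stood at 3.91, 3.99 and 3.94 FPKM in siNC and at 4.16, 4.01 and 4.00 FPKM in siPGC1a. The siPGC1a values all lay above the siNC values, but by little, and AGO1 did not pass (log2 difference 0.03, 95% interval -0.07 to 0.13, limma adjusted p = 0.583). AGO3 was the lowest Argonaute, at 1.19, 1.10 and 1.07 FPKM in siNC and 1.15, 0.950 and 1.01 FPKM in siPGC1a. Its groups overlapped (log2 difference -0.06, 95% interval -0.20 to 0.09, limma adjusted p = 0.497). AGO4, AGO1 and AGO3 lie next to each other in that order on chromosome 1, with 1 annotated pseudogene among them in RefSeq. The log2 differences of these neighbours were 0.40, 0.03 and -0.06, and whether they differ from one another was tested only through the shares that follow.

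**Figure D2:**
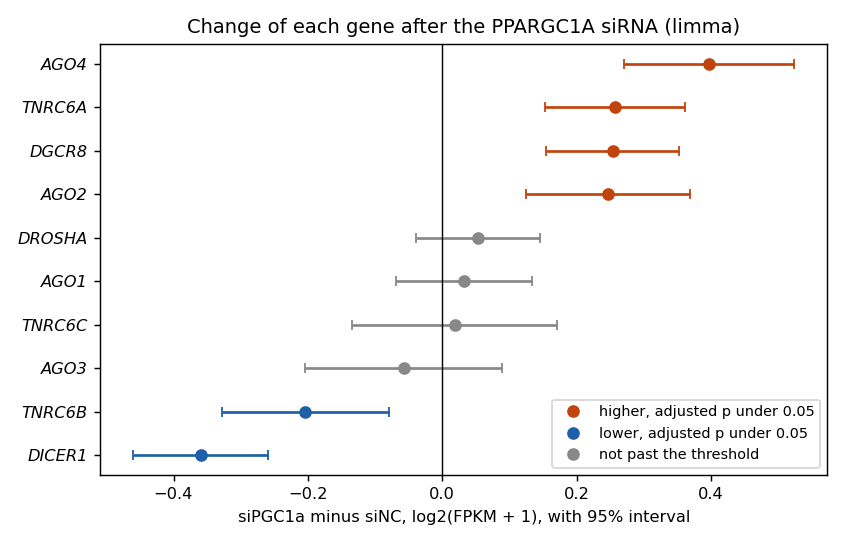
Difference of siPGC1a from siNC in log2(FPKM + 1) (x axis) for each of the 10 genes, with its 95% interval from limma. Orange marks genes higher and blue genes lower at an adjusted p under 0.05. AGO4, TNRC6A, DGCR8 and AGO2 lie between 0.25 and 0.40, TNRC6B at -0.20 and DICER1 at -0.36, and the intervals of the other 4 include 0.

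The make-up of the Argonaute pool was compared as each gene's share of the summed FPKM of AGO1 to AGO4. The AGO4 share was 21.0, 18.8 and 21.3% in siNC and 23.9, 25.4 and 25.5% in siPGC1a. The AGO1 share was 31.2, 33.0 and 32.0% in siNC and 27.3, 28.6 and 28.1% in siPGC1a. Neither pair of groups overlapped, with AGO4 taking more and AGO1 less of the pool in every siPGC1a library. AGO2 held the largest share in all libraries, 38.4% ± 0.600 in siNC and 39.9% ± 1.17 in siPGC1a (SD, n = 3), and AGO3 the smallest, 9.09% ± 0.408 and 7.14% ± 0.367. For each of these 4 shares the exact permutation p was 0.1, the smallest this design allows, and 0.117 after Benjamini-Hochberg adjustment over the 7 shares computed in both families. The summed Argonaute level was 12.3 ± 0.217 FPKM in siNC and 14.5 ± 0.674 FPKM in siPGC1a (SD, n = 3).

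TNRC6 genes moved in opposite directions. TNRC6A, the most abundant of the scaffolds, stood at 9.83, 9.87 and 9.33 FPKM in siNC and at 12.2, 11.8 and 11.2 FPKM in siPGC1a. The groups did not overlap, and TNRC6A rose 1.22-fold in mean FPKM (log2 difference 0.26, SE 0.047, limma adjusted p = 0.00159). TNRC6B stood at 2.91, 2.93 and 2.93 FPKM in siNC and at 2.62, 2.29 and 2.32 FPKM in siPGC1a. Here every siPGC1a library was below every siNC library, the first of them least so. TNRC6B fell by 17.6% in mean FPKM (log2 difference -0.20, SE 0.055, limma adjusted p = 0.0130).

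TNRC6C, the third scaffold, was the lowest of the 10 genes and the only one below the general filter of 1 FPKM, and was tested all the same. It was at 0.439, 0.422 and 0.420 FPKM in siNC and at 0.493, 0.415 and 0.429 FPKM in siPGC1a, with overlapping groups (log2 difference 0.02, 95% interval -0.13 to 0.17, limma adjusted p = 0.840). Its values rest on about 115 to 141 reads per library, against at least 418 for the other 9 genes. A small change of TNRC6C was not detectable, and the log2(FPKM + 1) scale makes the interval look narrow at this level. With a pseudocount of 0.1 in place of 1 the SE was 0.186 in place of 0.068. As a share of the summed FPKM of the 3 scaffolds, TNRC6A made up 74.3% ± 0.609 in siNC and 80.5% ± 0.830 in siPGC1a. TNRC6B made up 22.5% ± 0.581 and 16.5% ± 0.650 (SD, n = 3; exact permutation p = 0.1 and adjusted p = 0.117 for either gene). The TNRC6C share was 3.28% ± 0.075 and 3.05% ± 0.180, with an exact permutation p of 0.2.

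**Figure D3:**
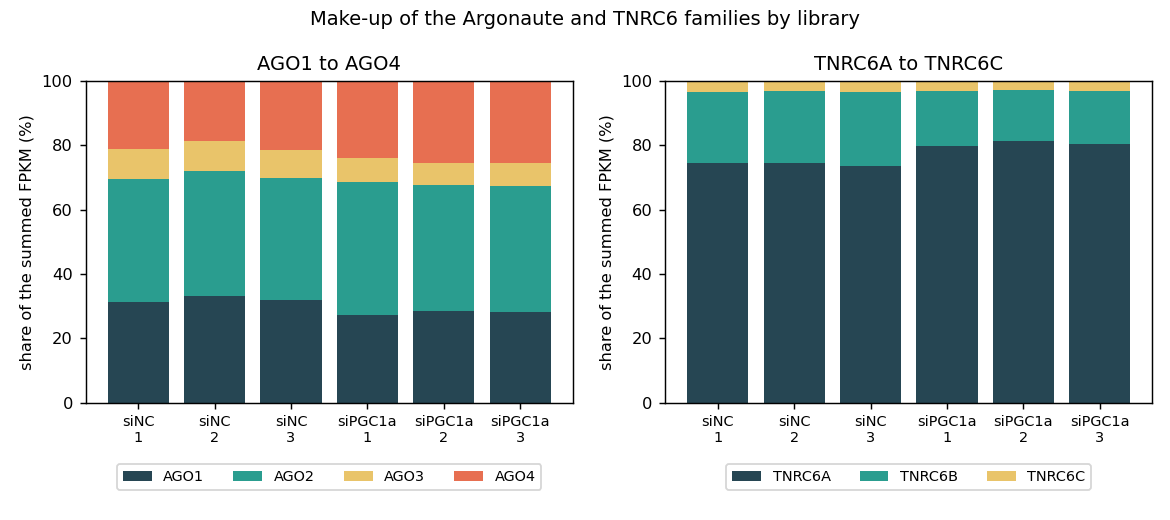
Share of each paralog in the summed FPKM of its family (y axis, %), 1 bar per library, for AGO1 to AGO4 (left) and TNRC6A to TNRC6C (right). In the siPGC1a libraries the AGO4 band is wider than in siNC (24.9% against 20.4% on average) and so is the TNRC6A band (80.5% against 74.3%).

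In siNC the order of levels was DROSHA, TNRC6A, DGCR8, DICER1, AGO2, AGO1, TNRC6B, AGO4, AGO3 and TNRC6C, and for each pair of neighbours in that order the 3 values of one gene lay apart from those of the next. The order differed in siPGC1a in 2 places. DICER1 lay above AGO2 and AGO1 in every siNC library and below both in every siPGC1a library. TNRC6B lay above AGO4 in every siNC library and below it in every siPGC1a library. Annotated exon lengths range from 7267 bases for AGO4 to 21157 bases for AGO3, most of it 3' UTR in AGO3, so levels per length rest on how much of that length is transcribed in these cells.

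Sequence words in the 3' UTRs are shown because earlier results of these data had found the 6-base word ACACCT more often in genes that fell. Among 10805 tested genes with an annotated coding 3' UTR (GENCODE v29, 1 transcript per gene), 29.9% hold the word, 44.6% of the lower and 20.2% of the higher genes. As the word was picked for this difference in these same data, the split is not a separate result. The word stood in 7 of the 10 small RNA genes, with the sites below given 5′ to 3′ on the transcript and the word in capitals.
DICER1: ttagacatatcACACCTaaaatatgctg
AGO4: cagcgggcaccACACCTgcacttgagtg
TNRC6A: aatgttgtcggACACCTtactataagca
AGO1: tggcattttccACACCTgtccactcctt
AGO3: attgagtaaggACACCTccagccataca
TNRC6C: tcgatggacatACACCTgcgtatgtata

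Genes with the word went both ways. DICER1 holds it once and fell, AGO4 and TNRC6A hold it once each and rose, and AGO2, with 3 matches, rose. AGO1 and TNRC6C, with 1 match each, and AGO3, with 7 matches of which the first is shown, did not pass. TNRC6B, the other gene that fell, has no match in a 3' UTR of 12567 bases, and neither DROSHA (935 bases) nor DGCR8 (1763 bases) has one. These 3' UTRs are mostly longer than the median of 1120 bases over the genes searched, and a longer one holds any given word more often.

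Genes that act beside the Microprocessor came from a list of cofactor and export genes. Of its 10 genes, 5 rose, 0 fell and 5 did not pass, with a median log2 difference of 0.12 beside 0.01 over all genes. The called share is close to the 48.1% of all tested genes. KHSRP, which binds the loop of some miRNA hairpins, rose from 68.6 ± 1.59 to 89.9 ± 4.27 FPKM, and SRRT, which links the nuclear cap complex to miRNA processing, from 24.7 ± 0.826 to 32.3 ± 1.51 FPKM (n = 3; limma adjusted p = 0.000105 and 0.000169). RAN, the GTPase that powers nuclear export, rose from 78.3 ± 2.02 to 100.9 ± 6.55 FPKM, and SRSF3, a splicing factor that recognises a motif beside miRNA hairpins, from 26.0 ± 1.24 to 31.5 ± 1.93 FPKM. NCBP1, a subunit of the nuclear cap complex, was at 13.9 and 15.4 FPKM, with overlapping groups and an adjusted p of 0.0463 that rose to between 0.0545 and 0.148 in 8 other settings, among them those without siNC replicate 2 (0.140), siNC replicate 3 (0.148), siPGC1a replicate 1 (0.148) or siPGC1a replicate 3 (0.0959).

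XPO5, the export receptor of miRNA hairpins, was at 10.9 ± 0.448 and 11.7 ± 0.117 FPKM and did not pass (n = 3, limma adjusted p = 0.121). The helicases DDX5 and DDX17, which join the Microprocessor, were at ratios of 0.978 and 1.03. NCBP2, the other cap-binding subunit, and HNRNPA1, an RNA-binding protein that helps the cutting of one miRNA hairpin, were at ratios of 0.980 and 1.02. None of these 5 genes passed. DDX17, XPO5 and DDX5 have exons that overlap an expressed gene on the opposite strand. The overlapping genes are KDELR3 at 46.3 FPKM, POLR1C at 11.5 FPKM and CEP95 at 2.82 FPKM.

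Beside DICER1, of 9 partner and loading genes 7 rose, 0 fell and 2 did not pass, where 25.6% of all tested genes were higher and 22.5% lower. The median log2 difference was 0.20. The 2 RNA-binding partners of DICER1 were TARBP2, at 11.1 ± 0.375 and 11.5 ± 0.588 FPKM (limma adjusted p = 0.503), and PRKRA, at 7.60 ± 0.565 and 8.88 ± 0.751 FPKM (n = 3, limma adjusted p = 0.0319). ADAR, which edits double-stranded RNA, was at a ratio of 1.07 (limma adjusted p = 0.0791). The other 6 genes encode the chaperones that open Argonaute for its RNA. HSPA8 rose from 228.5 ± 5.48 to 309.0 ± 7.46 FPKM and STIP1, which joins the HSP70 and HSP90 chaperones, from 43.4 ± 1.23 to 57.5 ± 0.754 FPKM (n = 3; limma adjusted p = 1.72e-05 and 3.63e-05). HSP90AA1 rose 1.17-fold and DNAJA2 1.16-fold. HSP90AB1 (1.07-fold) and PTGES3 (1.18-fold) passed at adjusted p-values of 0.0371 and 0.0285. The count of higher genes went from 7 to 4 without siNC replicate 2, without siNC replicate 3 and without siPGC1a replicate 3, where PRKRA, HSP90AB1 and PTGES3 did not pass. Without siPGC1a replicate 1, PRKRA (limma adjusted p = 0.0572) and PTGES3 (0.0575) did not pass, and HSP90AB1 did not without siNC replicate 1 (0.0938) or siPGC1a replicate 2 (0.109). Several chaperone genes have near-identical copies in the genome, so their counts are uncertain.

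**Figure D4:**
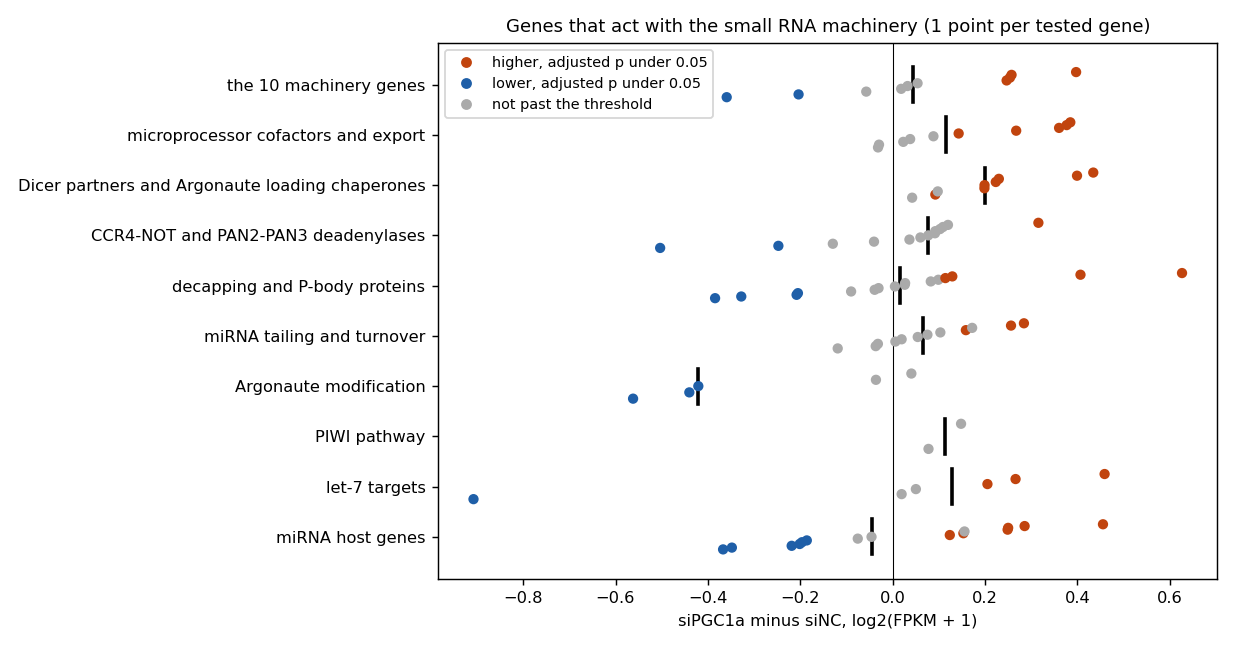
Difference of siPGC1a from siNC in log2(FPKM + 1) (x axis) for every tested gene of each list (1 point per gene), with a black bar at the list median. Orange points passed as higher and blue points as lower. The chaperone and DICER1 partner list has 7 of 9 points higher and 0 lower, and the Argonaute modification list has 3 of 5 lower and 0 higher. Of all tested genes 25.6% were higher and 22.5% lower.

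Among the enzymes that the TNRC6 scaffolds recruit most did not pass. Of 13 deadenylase genes 1 rose, 2 fell and 10 did not pass, where 48.1% of all tested genes passed. The list median was 0.08. The 2 that fell were both subunits of one enzyme. PAN3, its RNA-binding subunit, fell from 6.95 ± 0.238 to 4.62 ± 0.392 FPKM, and PAN2, its nuclease, from 10.8 ± 0.076 to 8.95 ± 0.496 FPKM (n = 3; limma adjusted p = 0.000121 and 0.00216). PAN2 has exons that overlap CNPY2 on the same strand. CNOT9, a subunit of the CCR4-NOT complex that contacts TNRC6 proteins, rose 1.27-fold, from 12.2 ± 0.173 FPKM to a level of 15.4 ± 0.631 FPKM (n = 3, limma adjusted p = 0.000329). Without siPGC1a replicate 2, 3 genes of this list were higher in place of 1.

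Among 16 decapping and P-body genes 4 rose, 4 fell and 8 did not pass, with a median of 0.02. The called share is close to the 48.1% of all tested genes. DCP2, the enzyme that removes the cap, rose from 3.50 ± 0.290 to 5.95 ± 0.516 FPKM, and XRN1, the exonuclease that then degrades the message, from 2.79 ± 0.162 to 4.02 ± 0.348 FPKM (n = 3; limma adjusted p = 8.83e-05 and 0.000641). DCP1A, the activator of DCP2, fell from 6.66 ± 0.368 to 4.86 ± 0.222 FPKM, and LIMD1, a LIM domain protein that binds Argonaute, from 6.03 ± 0.093 to 4.61 ± 0.520 FPKM (n = 3; limma adjusted p = 0.000325 and 0.00265). DCP2 and DCP1A thus moved in opposite directions. DCP1A does not stand for the decapping genes of the list, of which it is 1 of the 4 that fell. DCP1B was at a ratio of 1.00, EDC3 at 1.08 and EDC4 at 0.969, and none of these passed. PATL1 passed as higher, at a ratio of 1.09 (limma adjusted p = 0.0388). Without siNC replicate 2 or siNC replicate 3 the count of higher genes was 2 in place of 4.

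Of 12 tested genes on a list for the tailing and turnover of miRNAs, 3 rose, 0 fell and 9 did not pass. Of all tested genes 25.6% were higher. The list median was 0.06, and LIN28A was under the filter. PARN, a deadenylase that trims small RNAs, rose 1.25-fold and PNPT1, an exonuclease, 1.21-fold (limma adjusted p = 0.00105 and 0.00524). Without siPGC1a replicate 3, 1 gene of this list was lower in place of 0. Of 5 tested genes whose products modify Argonaute, 3 fell, 0 rose and 2 did not pass, with a median of -0.42. Of all tested genes 22.5% were lower, and 5 genes are few to compare with that share. PPP6C, the catalytic subunit of the phosphatase that acts on Argonaute, fell from 12.6 ± 0.593 to 8.23 ± 0.113 FPKM, while its partner ANKRD52 was at a ratio of 0.975. P4HB and P4HA1, the subunits of prolyl 4-hydroxylase, whose main substrate is collagen and which also hydroxylates AGO2, fell to 0.737 and 0.746 (limma adjusted p = 1.62e-05, 1.92e-05 and 0.000205 for PPP6C, P4HB and P4HA1).

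Transcripts that carry miRNA hairpins changed in both directions. Mature miRNAs were not measured, since the libraries were made from poly(A) RNA, so only the host transcripts are given. Of 22 host genes 15 were tested, and 6 rose, 6 fell and 3 did not pass, with a median of -0.05. For comparison, 25.6% of all tested genes were higher and 22.5% lower. With a filter at a mean of 5 FPKM, which leaves fewer genes to test, 3 host genes were lower in place of 6. MCM7, a replication helicase subunit, rose from 42.3 ± 0.862 to 58.4 ± 1.55 FPKM, and SMC4, a condensin subunit, from 14.4 ± 1.07 to 17.7 ± 0.909 FPKM (n = 3; limma adjusted p = 1.89e-05 and 0.00322). MIR100HG fell from 1.27 ± 0.135 to 0.784 ± 0.082 FPKM, and MIR210HG from 4.03 ± 0.293 to 2.90 ± 0.354 FPKM (n = 3; limma adjusted p = 0.00297 and 0.00267).

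The miRNAs inside these 4 host genes are shown because miRNAs with the same seed select targets by the same bases. From RefSeq (GRCh38.p14), 1 mature strand of each hairpin is given 5′ to 3′ with the seed, bases 2 to 8, in capitals.
miR-106b-5p (MCM7): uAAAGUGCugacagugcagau
miR-93-5p (MCM7): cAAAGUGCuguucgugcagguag
miR-25-3p (MCM7): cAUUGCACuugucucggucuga
miR-15b-5p (SMC4): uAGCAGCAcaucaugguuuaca
miR-16-5p (SMC4): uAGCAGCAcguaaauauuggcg
miR-100-5p (MIR100HG): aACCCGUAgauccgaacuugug
let-7a-5p (MIR100HG): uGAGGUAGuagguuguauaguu
miR-125b-5p (MIR100HG): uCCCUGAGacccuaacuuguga
miR-210-3p (MIR210HG): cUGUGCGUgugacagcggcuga

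The other strand of each hairpin is not shown. Among the strands shown, miR-106b and miR-93 of MCM7 share a seed, and so do miR-15b and miR-16 of SMC4, while the 3 strands of MIR100HG have different seeds. The let-7 seed pairs with the word CTACCTC. In 3' UTRs this word is held by 9.71% of the tested genes, 10.4% of the lower and 9.05% of the higher genes. Among the 10 small RNA genes it is held by AGO1 (1 match), AGO2 (2 matches) and AGO3 (1 match), with 1 site each of AGO1 and AGO3 shown and the word in capitals.
AGO1: ccttattcctcCTACCTCccgccccgccc
AGO3: cctgtcctcacCTACCTCactaaattgtt

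Of 6 tested genes on a list of textbook let-7 targets, 3 rose, 1 fell and 2 did not pass, with a median of 0.13. Of all tested genes 25.6% were higher and 22.5% lower. IGF2BP2, an RNA-binding protein, rose from 30.8 ± 0.957 to 42.6 ± 0.307 FPKM and its paralog IGF2BP1 from 1.48 ± 0.160 to 1.98 ± 0.186 FPKM (n = 3; limma adjusted p = 1.89e-05 and 0.0123). Without a filter the count of higher genes was 1 in place of 3, and IGF2BP1 was among the calls lost (limma adjusted p = 0.0696). NRAS, the small GTPase, fell from 17.8 ± 0.475 to 9.03 ± 0.588 FPKM (n = 3, log2 difference -0.91, limma adjusted p = 2.41e-06).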

How the data were processed

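Poly(A) RNA of 6 WM3248 samples was sequenced with a stranded kit and single reads. The authors deposited FPKM values per gene, in 1 table of 57688 rows. STAR, Picard, featureCounts and DESeq2 and the build hg19 are named, without versions, per the submitters' processing notes; their roles and the strand setting are not given in the sources used here. Values in steps of 1 read gave the library sizes, and reads behind a value are estimates from them.

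Values were taken as log2(FPKM + 1) and tested between siPGC1a and siNC (n = 3 each) with limma 3.58.1 in R 4.3.3, with a mean-variance trend and Benjamini-Hochberg adjustment over 12021 genes at a threshold of 0.05. Genes entered at a mean of at least 1 FPKM, and the 10 genes and PPARGC1A at any level. The fitting code was tested on simulated data. Single values were compared by exact two-sided permutation tests, and 0 expression columns lacked a sample.

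The 10 genes and all lists were chosen with earlier results of these data known. Named were the 10 genes, PPARGC1A, all genes of the Microprocessor and DICER1 partner lists and, of each other pathway list, up to 2 called genes with the largest rise and 2 with the largest fall. All other genes named with a value, among them MITF, TRMT2A, ANKRD52, P4HA1, single cell type markers, single PIWI pathway genes and genes with overlapping exons, fall outside that rule and were chosen after their values were seen. GENCODE v29, on another build, gave exon lengths, overlaps and 3' UTRs, and RefSeq gave miRNAs. Other pseudocounts, filters and scalings, a fit without the trend, a replicate block and leaving out each library were tried.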

Additional observations from a re-analysis of the deposited data

How the results depend on the processing

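The 6 called members of the pathway (AGO2, AGO4, DICER1, DGCR8, TNRC6A and TNRC6B) kept their call and direction in all 14 other settings, with TNRC6B closest to the threshold (limma adjusted p = 0.0461 without a filter). AGO3, not called, was at 0.0081 with quantile normalization, and TNRC6C at -0.0051 to 0.034 with 1 library left out, the lowest without siPGC1a replicate 1. The cause of the changes listed here was not tested. With a filter at a mean of 5 FPKM, which leaves fewer genes to test, 1607 genes were lower in place of 2706. Quantile normalization put DDX17 at -0.020 and HNRNPA1 at -0.021. With 1 library left out HNRNPA1 was at -0.018 to 0.067 and NCBP2 at -0.071 to 0.018. The decapping median was -0.013 at the 5 FPKM filter and -0.0048 with quantile normalization, and the host gene median was -0.012 without a filter, 0.039 at the 5 FPKM filter and -0.080 with quantile normalization. Quantile normalization gave medians of 0.023 for deadenylases and -0.34 for Argonaute modification, and no filter gave 0.0034 for the PIWI list. Leaving out 1 library gave medians of 0.15 to 0.25 for DICER1 partners, -0.013 to 0.034 for decapping, -0.43 to -0.37 for Argonaute modification and -0.085 to 0.010 for host genes. Shares from FPKM + 1 differed by -3.02 points for AGO1, -5.14 for TNRC6B and -0.697 for TNRC6C. Decapping genes higher were 2 in place of 4 at the 5 FPKM filter, with quantile normalization, with median-ratio scaling and without the trend, and DICER1 partners higher were 4 in place of 7 and let-7 targets higher 1 in place of 3 without a filter. Host genes lower were 3 in place of 6 at the 5 FPKM filter.

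With the replicate number as a block, 3253 genes were higher and 2827 lower, and the calls of the 10 genes were the same. Deviations of same-numbered samples correlated at 0.0766, 0.261 and -0.0575, too weak and mixed to show whether the numbers pair the samples. The siPGC1a samples 1 and 2 correlated best with the siNC sample of their own number. For siPGC1a sample 3 the best was siNC sample 1 (0.254). FPKM values carry no counting error of their own, and TNRC6C, at 115 to 141 estimated reads, has the least precise value of the 10 genes.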

Other observations

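The PIWI pathway, the germline branch of small RNA biology, was mostly at very low levels in these cells. Of 15 genes 13 were under the filter and 5 were listed at 0 in every library. The 2 tested, TDRKH at 4.25 and 4.54 FPKM and PLD6 at 1.43 and 1.71 FPKM in siNC and siPGC1a, did not pass. PIWIL4, the most abundant PIWI protein gene, was at 0.746 FPKM in siNC and 0.643 FPKM in siPGC1a, and its exons overlap those of FUT4 on the same strand.

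Most rows with a symbol of the miRNA form were at 0 in these poly(A) libraries. The rows were picked by symbol, so host transcripts such as MIR100HG and MIR210HG are counted among them. Of 1390 such rows 210 were above 0 in at least 1 library and 49 in all 6.

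Among markers of other cell types, the keratinocyte list had 1 tested gene, which did not pass, and summed to 20.5 to 21.3 FPKM in siNC and 20.7 to 25.8 FPKM in siPGC1a. The endothelium list summed to at most 0.362 FPKM and the immune cell list to at most 1.33 FPKM in any library, with 0 genes tested in either.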
